A study of Mus musculus with 2 samples.

Results

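The Hox genes of the 4 mammalian clusters were examined in the cervical loop (CL), where the lower incisor of the mouse grows and holds its epithelial stem cells. All probes of the bead array whose annotated gene symbol is Hoxa, Hoxb, Hoxc or Hoxd followed by a number were taken, without regard to their signal. This gave 50 probes for 38 genes, out of 25697 probes and 16593 named genes on the array.

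RNA came from C57BL/6 mice of 10 wk, and each genotype was represented by dental tissue microdissected from lower incisors of 3 mice and pooled. The KO mice were MED1 fl/fl K14Cre, so that Cre recombinase, driven by the keratin 14 promoter of epithelial cells, removes a floxed part of Med1, a subunit of the Mediator coactivator complex. Their littermates, labelled WT, carried the same MED1 fl/fl alleles without Cre. K14-Cre acts in epithelial cells, and the pooled tissue also held mesenchymal, vascular and blood cells. The labels place both samples in the CL, while their general dissection note speaks of hair-generating tissue. Each genotype has 1 column of values, called an array below, although the series text gives n = 3. Whether a column is 1 array or a mean, and the sex of the mice, are not given in the sources used here. No replicate values were at hand, so no difference between WT and KO could be tested.

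Hox genes encode homeodomain transcription factors that give regions of the trunk, hindbrain and limbs their identity. Their order along the chromosome follows their order of use from head to tail, with low-numbered genes used nearest to the head and high-numbered genes in the distal limb and the end of the trunk. The neural crest cells that form the jaws and the dental mesenchyme come from a part of the embryo that is known for not using Hox genes, and jaw patterning rests on homeobox genes outside the clusters, such as the Dlx and Msx families. In the adult, Hox genes are also used by blood progenitors and, in the case of Hoxc13, by hair follicles and nails.

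A probe was called detected when its detection p-value was under 0.01. This p-value is the share of negative control probes that were at least as bright as the probe. All deposited p-values were whole shares of 798 controls to within rounding, and a detected probe therefore had at most 7 controls at or above it. The lowest intensity of a detected probe was 123.5 on the WT array and 123.1 on the KO array, and a probe at the control median read 99.5 and 103.2. Med1, the targeted gene, had 1 detected probe of 4, with an intensity of 245.9 in WT and 172.9 in KO and a log2 ratio, KO minus WT, of -0.80. The other 3 Med1 probes were not detected, and the place of the detected probe relative to the deleted part is not known here, so this is a limited check of the labels. The tissue was recognisable by its dental epithelial genes, all 6 of which were detected, among them the basal keratin gene Krt14. The enamel matrix gene Amelx read 22621.8 in WT and 22412.7 in KO. The study places enamel matrix production in ameloblasts of the secretory stage. It also states that its CL tissue at a younger age probably held the near part of the secretory zone. How much of such tissue these samples held was not tested.

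Nearly all Hox genes were at the level of the negative controls. On at least 1 array 2 of the 38 genes were detected, which is 5.26%, whereas 50.5% of all named genes were. Both came from 1 probe each, so that 2 of the 50 Hox probes, or 4.0%, were detected, beside 45.7% of all probes. On the WT array 2 Hox probes were detected (4.0%, beside 42.9% of all probes). On the KO array 1 was detected (2.0%, beside 44.3%), and 1 was detected on both (2.0%, beside 41.5%). With a wider limit, a detection p-value under 0.05, 8 Hox genes passed, or 21.1%, beside 58.2% of all named genes. In pooled tissue, a gene used by few cells and a gene with little RNA in many cells cannot be told apart, and a probe that is not detected says only that its signal lay within that of the controls.

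**Figure D1:**
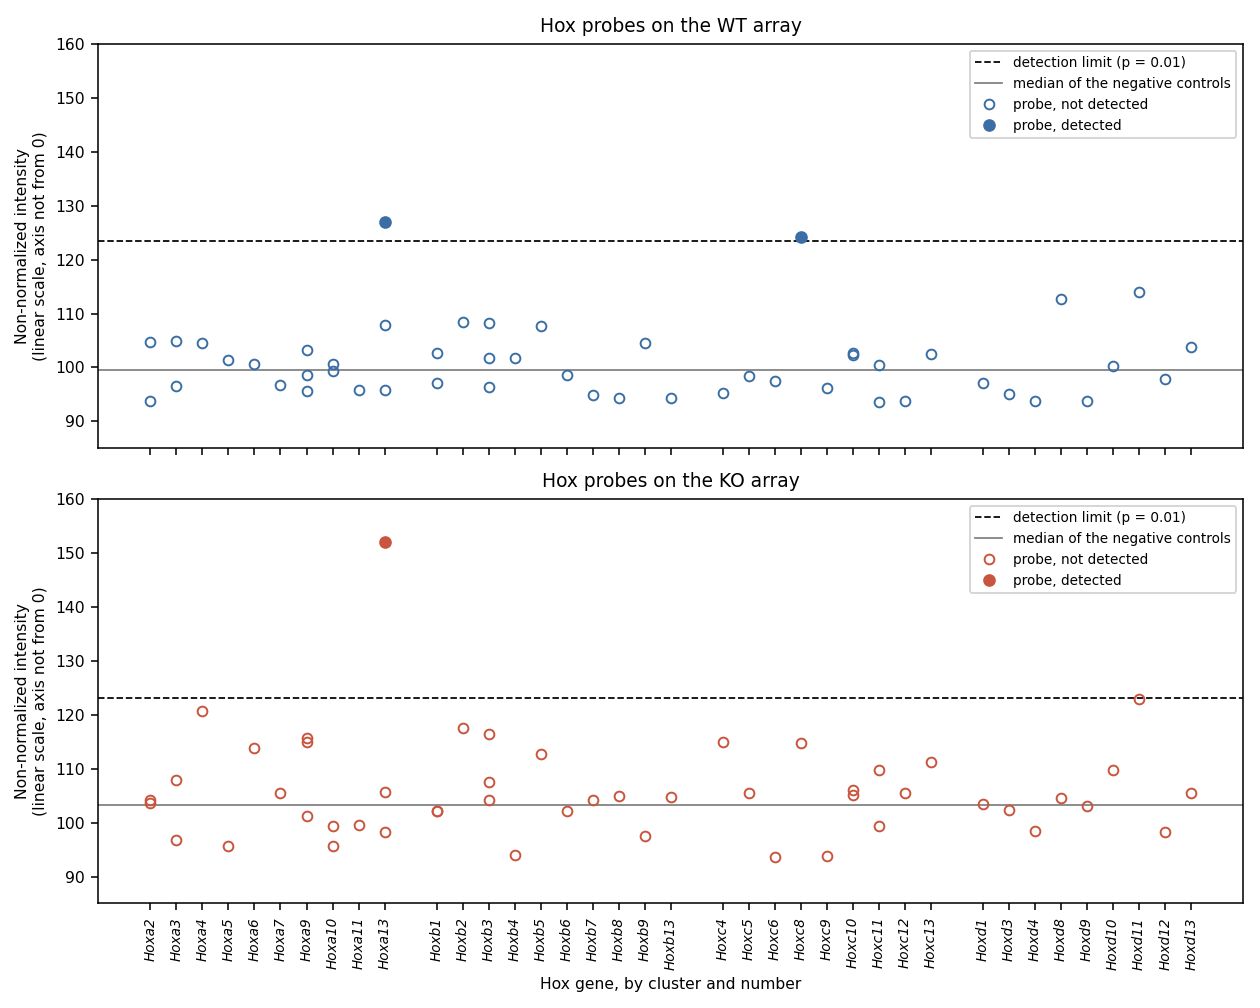
Non-normalized intensity (linear scale, axis not starting at 0) of each of the 50 Hox probes on the WT array (top) and the KO array (bottom), with genes ordered by cluster and number. Points are single probes, filled where detected, the dashed line is the lowest detected intensity (123.5 and 123.1) and the grey line the control median (99.5 and 103.2). A Hoxa13 probe lies above the limit on both arrays and the Hoxc8 probe in WT alone.

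The 2 detected genes were Hoxa13 and Hoxc8, from different clusters. The Hoxa cluster (chromosome 6, 17 probes, 10 genes) and the Hoxc cluster (chromosome 15, 11 probes, 9 genes) each had 1 detected gene. The Hoxb cluster (chromosome 11, 13 probes, 10 genes) and the Hoxd cluster (chromosome 2, 9 probes, 9 genes) had 0. By the number of the gene, the anterior paralogue groups 1 to 3, used in the hindbrain and neck, had 0 detected genes of 7 (12 probes). The groups 4 to 8, of the neck and trunk, had 1 of 15, which was Hoxc8, and the posterior groups 9 to 13 had 1 of 16, which was Hoxa13. No stretch of neighbouring Hox genes was detected together in any cluster.

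Hoxa13 encodes a factor of the distal limb and the urogenital tract. Its detected probe had an intensity of 126.9 in WT and 152.1 in KO, where 5 and 0 of the 798 controls were as bright or brighter. The other 2 Hoxa13 probes were not detected on either array. One read 107.8 in WT and 98.3 in KO, with 79 and 679 controls at or above it, and the other 95.9 and 105.6, with 594 and 267. The 3 probes of Hoxa13 thus gave different detection states and no common direction, and which transcripts each one binds was not analysed here. After background correction and quantile normalization, the log2 value of the detected probe was 5.37 in WT and 6.06 in KO, a ratio of 0.68 or 1.61-fold. This ratio was within the central 95% of the 2390 detected probes no brighter than it, which ran from -0.76 to 0.77. Among all 8378 detected genes 145, or 1.73%, had a ratio as high, and the central 95% ran from -0.62 to 0.61 around a median of 0.00. The ratio depended on the background correction and was 0.26 in the authors' normalized values.

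Hoxc8 encodes a factor of the thoracic skeleton and the spinal cord. Its only probe read 124.1 in WT and 114.8 in KO, with 6 and 43 controls at or above it. It was therefore 1 control away from the limit in WT and not detected in KO. The normalized log2 value was 5.28 in WT and 4.78 in KO, a ratio of -0.50. Against the lowest detected value of the KO array, which is the level that array could resolve, Hoxc8 was 1.09-fold, or 0.13 log2 units, higher in WT. Hoxc8 passed in WT alone, so the detection limit itself set that side. The bound is also smaller than the SD per probe of 0.25 log2 units given below. In the authors' normalized values the measured ratio was -0.14. No Hox gene reached a 2-fold difference, a size that 52 of the 8378 detected genes, or 0.621%, had. For measurement error, the spread between 2 detected probes of the same gene gives a rough guide: the SD per probe was 0.25 log2 units over 2007 genes, with no variation between animals in it.

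Most genes that are active in many tissues start in DNA rich in the dinucleotide CG, and Hox clusters are known for CG-rich DNA that Polycomb proteins hold where the genes are silent. RefSeq windows from 250 bases before to 50 after a gene's start (build GRCm38.p6) were at hand for 22 of the 38 Hox genes. The 250 bases before the start are shown for Hoxa13, detected on both arrays, and for Hoxa11, its nearest neighbour in the cluster, which was not detected (95.9 in WT and 99.5 in KO, with 594 and 628 controls at or above it). Hoxa13 lies at chr6:52260881-52261130 and Hoxa11 at chr6:52245811-52246060, both on the minus strand, read 5′ to 3′ with each CG in capitals.
Hoxa13: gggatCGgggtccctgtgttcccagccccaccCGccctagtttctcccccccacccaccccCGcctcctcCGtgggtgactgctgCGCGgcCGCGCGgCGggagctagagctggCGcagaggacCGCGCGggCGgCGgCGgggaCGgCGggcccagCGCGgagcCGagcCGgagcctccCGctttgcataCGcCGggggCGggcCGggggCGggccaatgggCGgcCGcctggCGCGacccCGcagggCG
Hoxa11: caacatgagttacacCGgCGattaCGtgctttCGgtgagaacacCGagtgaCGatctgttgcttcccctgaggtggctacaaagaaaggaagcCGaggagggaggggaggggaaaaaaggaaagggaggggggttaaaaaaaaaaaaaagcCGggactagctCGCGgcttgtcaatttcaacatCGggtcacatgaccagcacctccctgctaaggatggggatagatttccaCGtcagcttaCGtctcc
The Hoxa13 stretch holds 35 CG dinucleotides and has 80.0% G and C, and the Hoxa11 stretch holds 13 and has 52.0%. CG reads the same on both strands, and 31068 of the 32851 promoter windows of the whole table, or 94.6%, hold at least 1. Hoxc8 was not among the windows. These counts are a description of the letters and show nothing of a factor's binding.

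CG-rich promoters, with an observed over expected CG ratio of at least 0.6 and at least 50% G and C, were found in 11 of the 22 Hox genes and in 53.0% of the 13335 genes with a window. The median number of CG dinucleotides per window was 14.8 in Hox genes and 15.0 in all genes. Of all genes with a CG-rich window 70.3% were detected, compared with 1 of the 11 Hox genes, Hoxa13. Of all genes without one 29.2% were detected, compared with 0 of the 11 Hox genes. The detected share of all genes rose with the CG ratio, from 12.1% in the lowest class to 73.9% in the highest, and the Hox genes were spread over 5 of the 6 classes. Among the CG-rich windows with undetected genes was that of Hoxd13, the Hoxd counterpart of Hoxa13, whose probe read 103.7 in WT and 105.4 in KO.

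**Figure D2:**
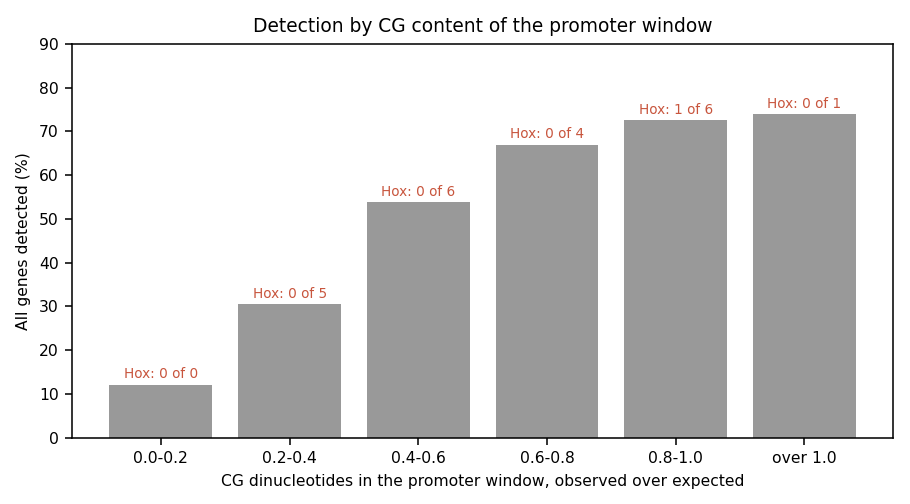
Share of all genes with a promoter window that were detected on at least 1 array (y axis, percent), in 6 classes of the observed over expected CG ratio of the window (x axis). The bars rise from 12.1% to 73.9%, and the counts above them show how many of the 22 Hox genes fell in each class and were detected, 1 in all.

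Some Hox genes lay between the 2 limits, with a detection p-value from 0.01 to under 0.05. These were Hoxa4, Hoxa9, Hoxb2, Hoxb3, Hoxd8 and Hoxd11. Hoxd11, which helps to form the forearm, lay just outside the limit, at 114.0 in WT and 122.9 in KO with 29 and 8 controls at or above it, and it passed the wider limit on both arrays. Hoxa4, a gene of the neck vertebrae, read 104.5 in WT and 120.6 in KO (155 and 14 controls). Hoxb2, a hindbrain gene, read 108.5 and 117.6 (71 and 21 controls). Hoxd8 was the one gene of these that passed in WT alone, at 112.6 in WT and 104.6 in KO (39 and 318 controls).

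The remaining 2 had several probes that disagreed. Of the 3 probes of Hoxb3, a hindbrain and neck gene, the one with a p-value under 0.05 in KO read 96.3 in WT and 116.4 in KO (573 and 26 controls). The others read 108.3 and 104.2 (74 and 339 controls) and 101.8 and 107.5 (271 and 172 controls). Of the 3 probes of Hoxa9, a gene of blood progenitors as well as of the posterior trunk, one read 95.7 in WT and 115.6 in KO (603 and 35 controls) and one 103.3 and 114.9 (194 and 42 controls). The third read 98.6 and 101.3, with 444 and 511 controls at or above it. For none of these genes is a fold difference given, since both arrays were below the detection limit.

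Since Hoxa9 is used by blood progenitors, their markers are given beside it. Of the 5 genes on the array that were listed for progenitors, 2 were detected on both arrays, beside 46.5% of all named genes. Which cells the RNA of these listed genes came from was not tested. The granule enzyme gene Mpo, with 1 of 3 probes detected, read 141.5 in WT and 157.7 in KO (ratio 0.39). The surface marker gene Cd34 read 130.7 and 137.3 (ratio 0.16). Both ratios were within the central 95% of all detected genes, from -0.62 to 0.61. Elane and Ctsg, further granule enzyme genes, were detected in KO alone, at 120.9 and 111.8 in WT and 134.4 and 126.1 in KO, so that the detection limit itself set the side on which they were higher. The progenitor receptor gene Flt3 was not detected, at 100.5 in WT and 113.1 in KO. All 6 neutrophil genes were detected on both arrays and had ratios above 0, with a median of 1.10. Of all 8378 detected genes, 4194 had a ratio above 0. Of 3 lymphocyte genes, 0 were detected on either array, beside 50.5% of all named genes on at least 1. The part of blood cells in the Hoxa9 signal was not tested.

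The Hox genes that the study names for a later, hair-forming stage or another age were not detected in these samples. Hoxc13, which switches on hair and nail keratin genes, read 102.5 in WT and 111.2 in KO, with 230 and 84 controls at or above it. Hoxb7 read 94.8 and 104.1 (662 and 343 controls), and Hoxc6 read 97.5 and 93.7 (501 and 779 controls). Of 5 hair and epidermal marker genes on the array, 2 were detected, both of them epidermal: Krt10 at 690.0 in WT and 605.7 in KO (ratio -0.05) and Lor at 190.6 and 180.8 (ratio -0.06). The hair keratin genes Krt71 and Krt31 and the epidermal Krt1 were not detected, at 88.5, 95.7 and 93.1 in WT and 98.8, 103.5 and 109.9 in KO.

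The other Hox genes lay further inside the range of the controls. In the Hoxa cluster the fewest controls at or above an undetected gene, over its probes and both arrays, ran from 14 for Hoxa4 to 594 for Hoxa11. Hoxa2, which sets the identity of the second pharyngeal arch next to the jaw, read 93.8 in WT and 103.7 in KO on one probe and 104.8 and 104.2 on the other, with at least 142 controls at or above it. In the Hoxb cluster the fewest controls ran from 21 for Hoxb2 to 443 for Hoxb6. In the Hoxc cluster they ran from 43 for Hoxc4 to 585 for Hoxc9, and in the Hoxd cluster from 8 for Hoxd11 to 677 for Hoxd4. Hoxd4, whose probe read 93.8 in WT and 98.4 in KO, thus had the highest number among the 38 genes. Of the 6 genes between the limits Hoxb2 and Hoxb3 are neighbours in their cluster, and the others lay apart from each other.

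As a set, the Hox probes were spread over the whole range of the controls. In WT 25 of the 50 Hox probes were above the control median, and in KO 31 (62.0%), compared with 78.5% and 77.7% of all probes. Among the 13955 probes of the whole array that were not detected on either array, 60.4% in WT and 58.9% in KO were above it. The median Hox probe had 381 controls at or above it in WT and 314 in KO, whereas the median of all probes had 39 and 35 and that of all undetected probes 314 and 314. Since 48 of the 50 Hox probes were themselves undetected, a place near the undetected probes was largely given beforehand. Among undetected probes alone, the median Hox probe had 425 controls at or above it in WT and 328 in KO. Of these Hox probes 47.9% in WT and 60.4% in KO were above the control median. Over the 48 undetected Hox probes, which share 2 arrays, the log2 intensities in WT and KO had a Pearson correlation across probes of 0.32, and over all undetected probes of 0.52.

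**Figure D3:**
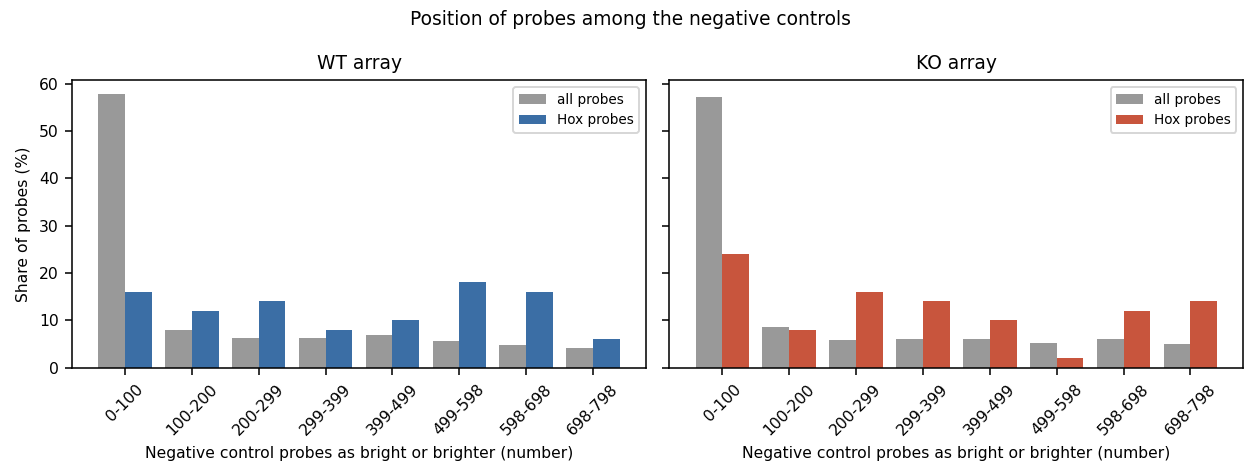
Share of probes (y axis, percent) by the number of the 798 negative controls that were as bright or brighter (x axis, 8 equal classes), for all 25697 probes (grey) and the 50 Hox probes (coloured), on the WT array (left) and the KO array (right). The brightest class holds 57.8% and 57.2% of all probes but 8 and 12 of the 50 Hox probes, which are spread over the other classes.

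Raw Hox signals were slightly higher on the KO array, as were those of undetected probes in general. The KO intensity was above the WT intensity in 37 of the 50 Hox probes (74.0%), with a median difference of 5.4 units. Of all undetected probes 69.7% were brighter in KO, with a median difference of 3.4, and the control median itself rose from 99.5 to 103.2. After background correction and quantile normalization 30 of the 50 Hox probes were higher in KO, beside 48.7% of all undetected probes. In the authors' normalized values 28 were, beside 48.5%. The Hox range was 93.6 to 126.9 in WT and 93.7 to 152.1 in KO, so the arrays overlapped almost wholly apart from the one Hoxa13 probe.

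Detection was also set beside that of genes with the same number of probes. Of all named genes with 1 probe 43.4% were detected, and of the 29 Hox genes with 1 probe 1 was (Hoxc8). With 2 probes the counts were 62.1% of all genes and 0 of 6 Hox genes, and with 3 probes 74.5% and 1 of 3 (Hoxa13).

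The genes next to the clusters were mostly detected. Of the 5 nearest protein-coding genes on each side of the 4 clusters, 37 had a probe. Of these 26, or 70.3%, were detected, beside 50.5% of all named genes. The counts were 7 of 10 around Hoxa, 6 of 9 around Hoxb, 8 of 9 around Hoxc and 5 of 9 around Hoxd. On the low-numbered side of Hoxa, Skap2, a signalling adaptor gene, and Snx10, a sorting nexin gene, were detected on both arrays with 0 controls at or above them. On the other side, Evx1, a homeobox gene at the end of the cluster, was not detected, at 116.2 in WT and 117.4 in KO, while Hibadh, an enzyme of valine breakdown, was. Evx2, in the same place beside Hoxd13, was not detected either. Of its 2 probes one read 109.7 in WT and 99.4 in KO, and the other 102.8 in KO. Around Hoxc, Smug1, a DNA repair gene, and Calcoco1, a coactivator and autophagy gene, were detected at either end. Around Hoxd, the mitochondrial import gene Mtx2 was detected with 6 controls at or above it in KO. Of the 8 cluster ends, 5 had a detected gene as the first protein-coding neighbour with a probe beyond the Hox and Evx genes, namely both ends of Hoxa and Hoxc and the Hoxd1 end of Hoxd.

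**Figure D4:**
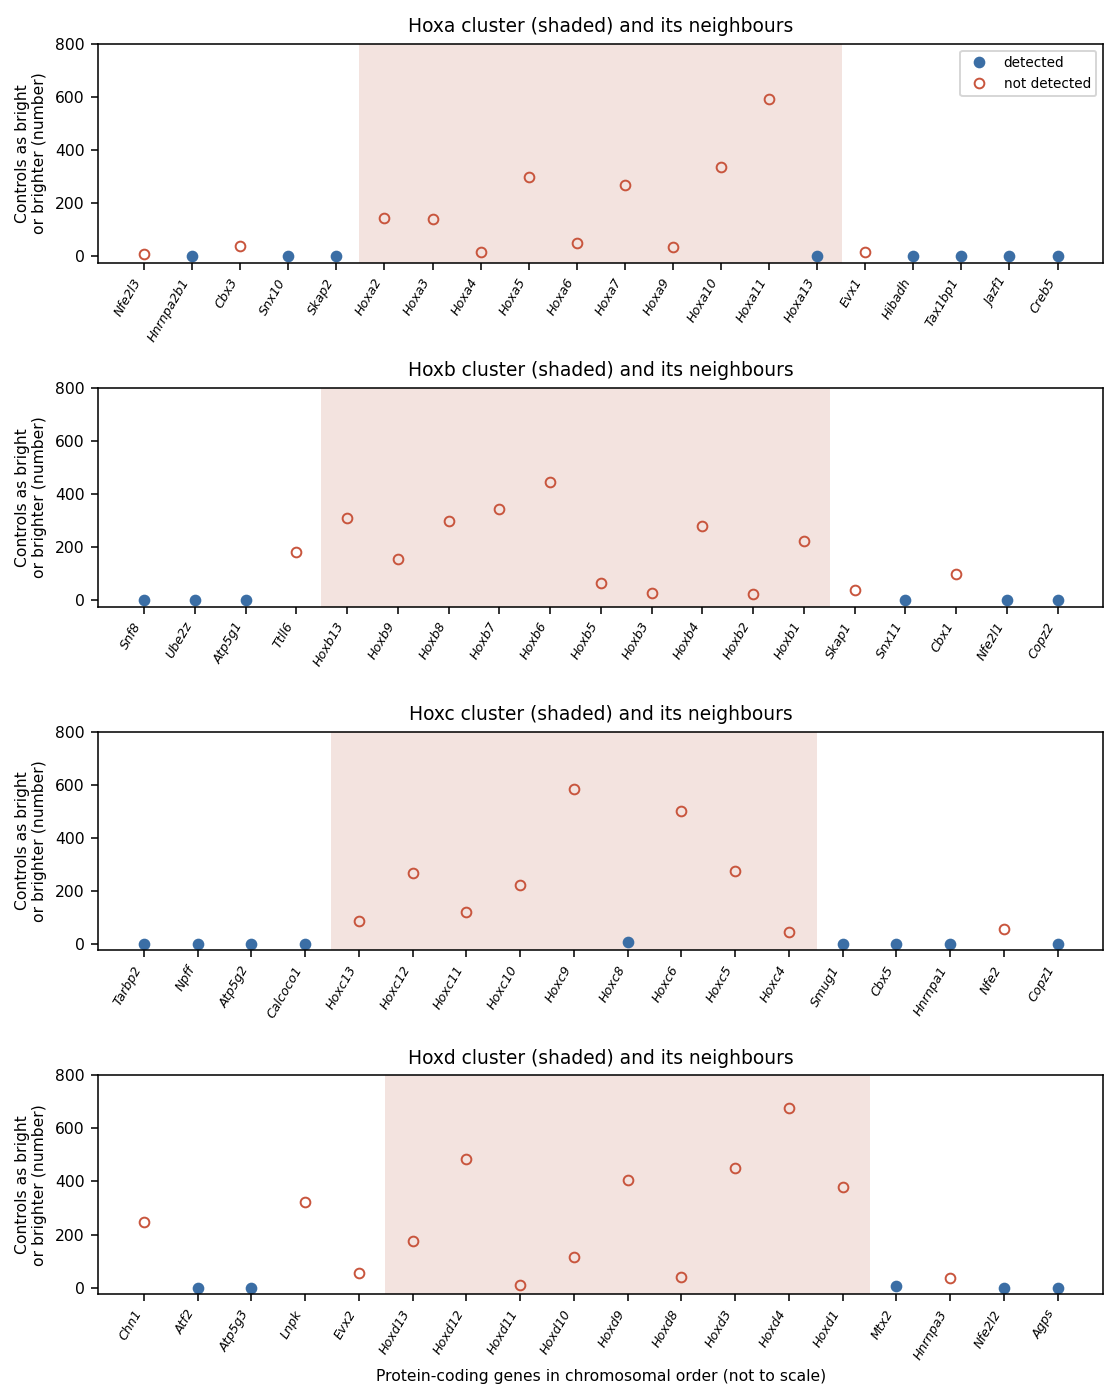
Fewest negative controls (y axis, of 798) that were as bright or brighter than a gene's probes on either array, for the Hox genes (shaded) and those with a probe among the 5 protein-coding genes on each side, in order of their annotated starts (x axis, not to scale), so that overlapping genes such as Hoxb3 and Hoxb4 can change places. Filled points are detected genes: 26 of 37 flanking genes with a probe, but 1 gene each in Hoxa and Hoxc and 0 in Hoxb and Hoxd.

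Partners and regulators of Hox genes were counted in the same way. Hox proteins bind DNA together with the PBC and MEIS homeodomain cofactors, of which 4 of 7 genes were detected (57.1%, beside 50.5% of all named genes), 2 with a ratio above 0 and 2 below, with a median of -0.04. Meis1 read 177.9 in WT and 148.7 in KO (ratio -0.50), and Pknox1 154.7 and 182.3 (ratio 0.55). Pbx2 and Pbx3 had ratios of 0.04 and -0.11, while Meis2, Meis3 and Pknox2 were not detected. Of the embryonic Hox activators, Egr2 (Krox20), which acts in the hindbrain, was detected with a ratio of 0.03, and Cdx1, Cdx2 and Cdx4, which act in the posterior body, were not.

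The retinoic acid pathway, whose receptors switch on Hox genes in the embryo, was detected in 14 of 16 genes (87.5%). The share of all named genes was 50.5%. Of these 4 had a ratio above 0 and 10 below, with a median of -0.11. Of all 8378 detected genes, 4194 were above 0. Of the 14 pathway genes, 11 were detected on both arrays. Rara and Rxrg passed in WT alone and Aldh1a1 in KO alone, so the detection limit itself largely set their side. Cyp26a1, which breaks down retinoic acid, read 233.7 in WT and 171.2 in KO (ratio -0.72). Aldh1a2, which makes it, read 206.9 and 158.4 (ratio -0.68), and the vitamin A transporter gene Stra6 149.7 and 126.7 (ratio -0.68). These 3 had the widest ratios of the 14, and all lay beyond -0.62, where the central 95% of all detected genes ended. Of the 3, only Stra6 was as dim as the probes used for Hoxa13, whose central 95% ended at -0.76. The Stra6 ratio lay within that range. The receptor genes Rarb, Rarg and Rxrb had ratios of 0.16, 0.21 and 0.00.

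Genes of both Polycomb complexes, which keep Hox genes silent, and of the MLL complexes, which keep them active, were detected as RNA. Some listed genes had no probe, among them Kmt2a and Ash1l of the MLL list. For comparison, 50.5% of all named genes were detected, and 4194 of the 8378 detected genes had a ratio above 0. Of the Polycomb repressive complex 2, which methylates H3K27, 7 of 10 genes (70.0%) were detected, 6 above 0 and 1 below, with a median of 0.24. Its core gene Suz12 read 1740.5 in WT and 1798.5 in KO (ratio 0.24), the methyltransferase gene Ezh2 286.3 and 304.0 (ratio 0.25) and Eed 124.7 and 140.3 (ratio 0.45). Of the 7 detected genes of this complex, 6 were detected on both arrays. The probe used for Ezh1 (ratio 0.24) passed in KO alone, so the detection limit itself largely set its side. Of complex 1, 14 of 18 (77.8%) were detected, 6 above 0 and 8 below, with a median of -0.07. Cbx7, a reader of methylated H3K27, read 208.9 in WT and 150.5 in KO, a ratio of -0.88, and the ubiquitin ligase gene Ring1 499.1 and 368.1, a ratio of -0.41. Rnf2 of the same complex was not detected, at 105.4 in WT and 107.8 in KO. Of the MLL complex and H3K27 demethylase genes all 10 on the array were detected, 7 above 0 and 3 below (median 0.09). Of these, Men1 had a ratio of 0.32, Kmt2b of 0.21 and the demethylase gene Kdm6a of -0.36. None of these genes differed by 2-fold.

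Of the 148 homeobox genes outside the clusters on the array, 43 (29.1%, beside 50.5% of all named genes) were detected, 20 with a ratio above 0 and 22 below, with a median of -0.02. On both arrays 40 of the 43 were detected. Barx1 and Cux2 passed in WT alone and Homez in KO alone, so the detection limit itself largely set their side. The list of 148 genes overlaps with the jaw homeobox genes and the cofactors. Of the homeobox genes known for the jaw and teeth, 12 of 17 (70.6%) were detected, 6 above 0 and 6 below, with a median of 0.00. Of the 12, 11 were detected on both arrays, and Barx1, among the 6 below, is the exception. The 5 undetected genes were Alx4, Dlx5, Lhx6, Pax9 and Pitx1, with Pax9 at 120.4 in WT and 114.5 in KO. Of 5 dental mesenchyme and odontoblast genes on the array 2 were detected, Msx1 on both arrays and Barx1 in WT alone. Dspp, Dmp1 and Dlx5 of that list were not. Msx1, a gene needed for tooth formation, read 4023.0 in WT and 4364.4 in KO (ratio 0.30). Dlx3, an enamel and hair gene, read 3630.1 and 3235.8 (ratio 0.02), and Dlx1 1498.2 and 1193.9 (ratio -0.16). Dlx4 had the widest ratio of the jaw list, at -0.70, from 146.9 in WT and 124.6 in KO. Other homeobox genes with high signals were Satb1, a chromatin organiser, and Isl1, a dental epithelial gene, with ratios of 0.01 and 0.18. Of the patterning genes of limbs and trunk outside the clusters (Tbx4, Tbx5, Pitx1 and Hand2) 0 of 4 were detected. Pitx1 is in the jaw list too, and Hand2 is also known from the mandibular arch, so the lists are not separate.

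**Figure D5:**
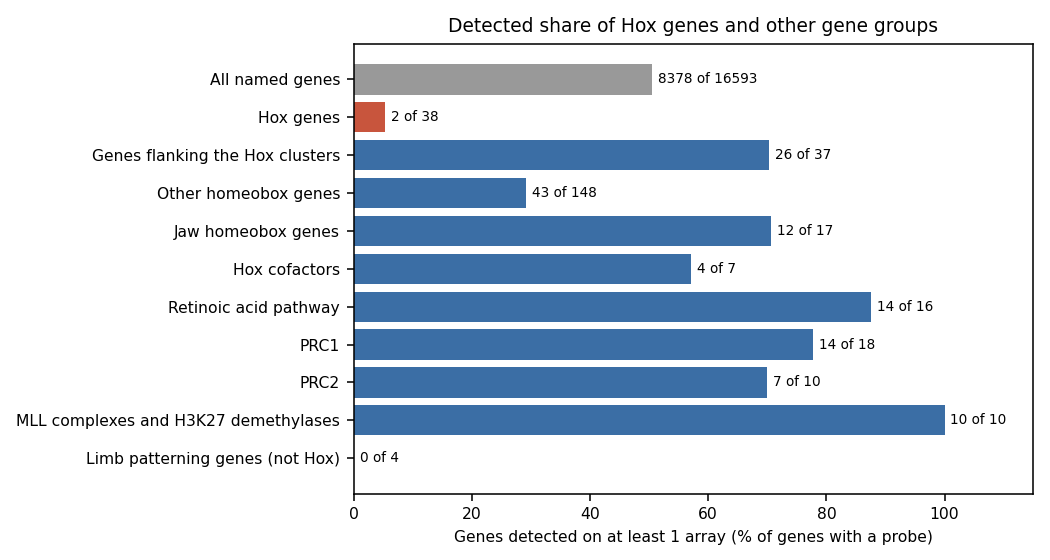
Share of genes with a probe that were detected on at least 1 array (x axis, percent, bars from 0), for all named genes, the Hox genes and other lists, with counts beside the bars. Hox genes stand at 5.26% (2 of 38), compared with 50.5% of all named genes, 70.3% of the flanking genes and 29.1% of other homeobox genes, and the bar of limb patterning genes has no length (0 of 4).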

How the data were processed

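From GenomeStudio the authors deposited a non-normalized intensity per probe, with no background subtraction, and a second set normalized between arrays. The authors also deposited a detection p-value per probe and array. Its columns carry no sample name and were read as those of the preceding intensity column. Gene symbols came from the platform annotation. Intensities were corrected with neqc (limma 3.58.1, R 4.3.3, offset 16), quantile normalized and taken to log2. A gene was represented by its detected probe with the highest signal, and a gene detected on 1 array by a lower bound. Chromosomes, flanking genes and promoter windows came from RefSeq tables, and 22 of the 38 Hox genes had a window. No build is named for the array values.

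Values are given for each Hox gene detected or with a p-value under 0.05, for 3 that the study names at another stage, and for the members of other lists with the highest signals or widest ratios. Other genes were picked as examples with their values in view. The members and lists were chosen with earlier results of these data known. Steps were tested on simulated data. With 1 sample per group no test was made. Other detection limits, normalizations and symbol updates were tried. The number of arrays limits the precision.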

Additional observations from a re-analysis of the deposited data

How the results depend on the processing

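The number of detected Hox genes, 2 in the report, moved with the detection limit. It was 8 at p under 0.05 (58.2% of all named genes), 1 at p under 0.001 (42.9%), 1 with detection on both arrays (46.5%) and 1 when most of a gene's probes had to be detected, an alternative chosen after seeing the data in which 42.3% of all named genes passed. The number of Hox probes was 8, 1 and 1 under the first 3 of these, and the share of Hox genes was 21.1% at p under 0.05. Updated gene symbols gave 2 genes again. The median ratio of detected Hox genes, 0.09, became 0.68 on both arrays, where it is Hoxa13 alone. At p under 0.05, with 8 genes, it was 0.39. Of these genes, Hoxa4, Hoxa9, Hoxb2 and Hoxb3 passed that limit in KO alone, and Hoxc8 and Hoxd8 in WT alone. For such genes the limit itself largely set the side on which they were higher, so no difference is read from this median. No ratio changed sign and no Hox gene reached 2-fold in the settings run. Hoxa13 lay at 0.26 in the authors' values, 0.26 without background correction and 0.41 with an offset of 50, and Hoxc8 at -0.14, -0.15 and -0.25, since a constant signal kept or added draws dim ratios towards 0. Median scaling gave 0.61 and -0.52, with the median of all genes at -0.13. Both genes rest on 1 probe near the limit, and signal over background limits what can be said of the others. No paired analysis was possible because there was 1 sample per group and the result comes from no test.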
